A study of Macaca mulatta with 10 samples.

Results

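Apolipoproteins and paraoxonases are proteins that the liver puts into the blood on lipoprotein particles. The genes described are APOA1, APOA2, APOA5, APOB, APOC3, APOE, APOH, APOM, PON1 and PON3, which makes 10 of the 14132 genes that carry a probe set of their own on the array. A probe set is a group of short probes read together for 1 transcript, and every probe set paired in the array's annotation with exactly 1 of these symbols was taken, 16 in all. RNA of rhesus macaque (Macaca mulatta) liver was hybridised with 1 array per animal. The 5 brain-dead donors were set against 5 living-donor control animals. Brain death was brought about by slowly filling a balloon between skull and dura, and fluid together with vasopressin, dopamine or both kept up the blood pressure. The labels give its length as 6 h and the design text of the series as 5 h. Control donors spent 1 h on a ventilator under anaesthesia, and all livers were flushed in place with UW preservation solution. Ventilation time and drugs therefore differ together with brain death and cannot be told apart from it. The brain-dead animals numbered 1 to 5 were female, female, male, male and male. Their ages were 7, 18, 7 and 7 years for animals 1, 2, 4 and 5, and no age is given for animal 3. The control animals numbered 1 to 5 were female, female, female, male and male, aged 16, 10, 4, 20 and 10 years. No strain or genotype is named in the labels.

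Lipoproteins carry fat and cholesterol through the blood, and apolipoproteins hold them together and steer them. APOB is the backbone protein of very low density lipoprotein (VLDL), the triglyceride-rich particle that hepatocytes release. APOA1 and APOA2 are the main proteins of high density lipoprotein (HDL), and APOM, PON1 and PON3 ride on it. APOA5 speeds and APOC3 slows the removal of triglyceride by lipoprotein lipase, and APOE leads remnant particles to their receptors. Roles named in the text are those known from humans and rodents.

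The deposited value is the MAS5 signal, an intensity on a linear scale computed per probe set and array, and array medians lay between 175 and 227. Log2 signals were compared with limma over 26653 probe sets above their array's median on at least 5 of 10 arrays, and a change was called when the adjusted p was under 0.05. Every change is the log2 signal of brain-dead minus control animals with its standard error from limma, and n was 5 animals per group. Of 8 measured hepatocyte markers 0 were called and 8 lay below 0, with a median change of -0.39, and 3 had an unadjusted p under 0.05, as did 25.1% of all genes tested. Their summed signal was 381503 to 470652 in brain-dead and 441547 to 598253 in control livers, so the tissue carried hepatocyte RNA in every animal. ALB, TTR, ASGR1, ASGR2 and CPS1 of that marker list were not analysed here. The ratio of 3' to 5' probe sets, a measure of RNA quality, was 1.15 to 1.38 in brain-dead and 1.24 to 1.41 in control arrays for actin. The summed signal of 7 measured neutrophil markers was 9190.4 to 57482 in brain-dead and 1406 to 6679 in control livers, with S100A12, MPO and MMP8 under the filter. Most of it came from S100A8 and S100A9, which averaged 12411 and 13929 in brain-dead livers, where the other 5 averaged 226 to 658. This sum was higher in brain-dead livers, where APOA5 and PON1 were lower. Whether it was related to APOA5 or PON1 from animal to animal was not tested. Both animals numbered 1 stood apart from the other 8 on the second principal component (72.1 for the brain-dead and 69.6 for the control animal, the others between -36.1 and 26.5), so results are also given without that pair. In bulk liver, fewer hepatocytes and less RNA per hepatocyte cannot be told apart.

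The signals of all 10 genes were on average lower in brain-dead livers, but the change was called for 2 of them. APOA5, the triglyceride-lowering apolipoprotein, and PON1, the HDL-bound paraoxonase, fell. None of the 10 rose. Of the 16 probe sets 15 could be tested, and 3 were called lower, 0 higher and 12 not called. Over all tested probe sets 3.39% were called lower and 2.72% higher, 6.1% together. By genes, each read from its brightest tested probe set, 2 of 10 were called lower and 0 higher, where 3.87% of 9835 genes were called lower and 2.9% higher, 6.77% together. Before adjustment, 10 of the 15 probe sets had a p under 0.05, where 23.7% of all probe sets did, and 15 of 15 lay below 0. Of all tested probe sets 50.2% lay below 0, and of all genes 50.5%. The median change of the 10 genes was -0.38 (quartiles -0.76 and -0.26), against -0.0069 over all genes tested. The 2 groups did not overlap for 6 of the 15 probe sets, all lower, where 3.6% of all probe sets did so in that direction and 6.93% in either. By genes this held for 4 of 10, all lower, where 4.15% of all genes did so in that direction and 7.8% in either. The count of 2 genes was 1 without brain-dead animal 2, 3, 4 or 5 or control animal 1, 2, 3 or 4. Without both animals numbered 1, 1 member gene was called, PON1 (change -0.92, adjusted p = 0.0173), and APOA5 was called with its dimmer probe set (-2.78, adjusted p = 0.0401) and not with its brighter one (-1.67, adjusted p = 0.0618). The one remaining probe set, a second one for PON1, lay above the median on 0 of 10 arrays and was not tested.

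**Figure D1:**
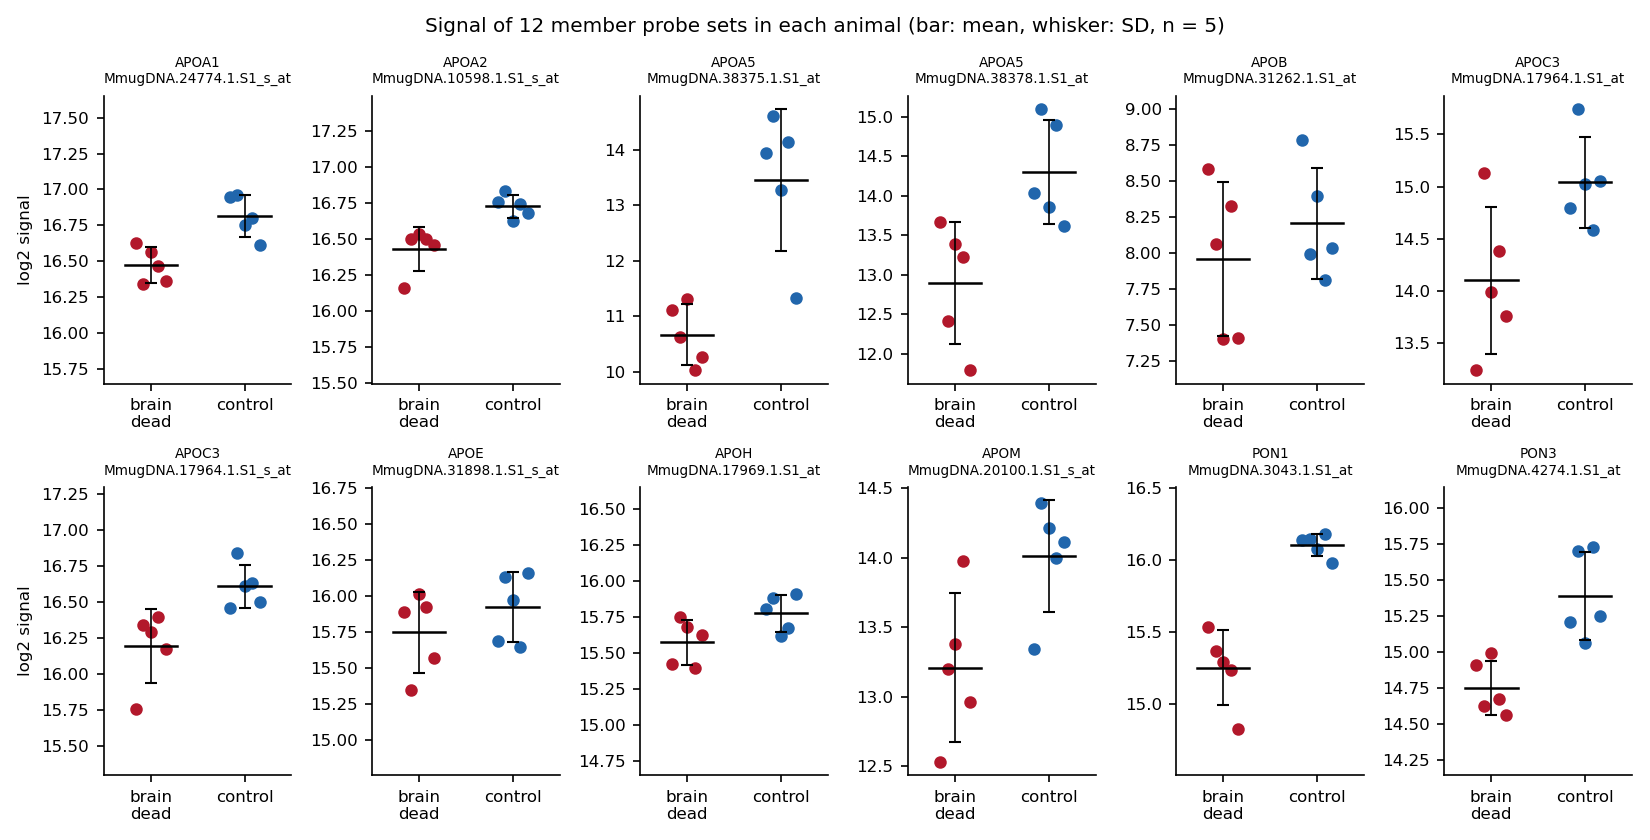
Log2 signal of 12 member probe sets, 1 panel each with its own vertical range, in 5 brain-dead (left) and 5 control animals (right); points are animals, the bar is the mean and the whisker the SD. Brain-dead and control points are fully apart for APOA2, the first APOA5 panel, the second APOC3 panel, PON1 and PON3, and they mix for APOB and APOE.

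APOA5 had the largest change of the 10 genes. It is made almost only in the liver and circulates at very low concentration. Its probe set MmugDNA.38375.1.S1_at gave signals of 2217, 1578, 2557, 1039.8 and 1231 in brain-dead animals 1 to 5, against 15869, 24970, 9953, 18045 and 2569 in control animals 1 to 5. All 5 brain-dead animals lay below all 5 control animals, although control animal 5 stood just above the highest brain-dead one. The change was -2.79 ± 0.51 (95% interval -3.89 to -1.69, limma adjusted p = 0.00998), so that the signal was 14.4% of control, 6.93-fold lower. Control animals themselves spread widely, with the highest signal 9.72-fold above the lowest, against 2.46-fold in brain-dead animals. The call held under all 25 alternative settings tried, with changes between -3.33 and -2.43.

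The brighter APOA5 probe set, MmugDNA.38378.1.S1_at, gave a smaller change. Its signals were 13000.5, 5483, 10703, 9549.97 and 3540.4 in brain-dead animals 1 to 5, against 16792, 35231, 14873, 30498 and 12605 in control animals. Here the groups overlapped by a single pair, since brain-dead animal 1 lay above control animal 5. The change was -1.41 ± 0.38 (95% interval -2.23 to -0.58, limma adjusted p = 0.0466), or 37.7% of control. This second call ended under 16 of 25 alternatives. It ended without brain-dead animal 2, 3, 4 or 5 (adjusted p = 0.0776, 0.0596, 0.0713 and 0.106) and without control animal 1, 2, 3 or 4 (adjusted p = 0.0729, 0.117, 0.0680 and 0.0742). The direction was the same for both APOA5 probe sets under every alternative.

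APOC3, an inhibitor of lipoprotein lipase and of remnant uptake, had 3 probe sets, and none was called. The dimmest, MmugDNA.17964.1.S1_at, gave 9642, 35806, 16257, 21299 and 13891 in brain-dead animals 1 to 5, against 28345, 55016, 33345, 24492 and 34027 in control animals. Brain-dead animal 2 stood inside the control range and the other 4 below it. The change was -0.94 ± 0.32 (95% interval -1.64 to -0.25, limma adjusted p = 0.0996). Without brain-dead animal 2 it was -1.20 with an adjusted p of 0.0282. The brightest, MmugDNA.17964.1.S1_s_at, gave 55441, 83110, 80296, 86413 and 73906 in brain-dead animals, against 89949.9, 117414, 100225, 101707 and 92912 in control animals. These groups did not overlap, yet the change was small, at -0.42 ± 0.16 (adjusted p = 0.138). The third probe set, MmuSTS.2097.1.S1_s_at, likewise showed groups that did not overlap and a change of -0.43 ± 0.17 (adjusted p = 0.139).

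APOA1, the scaffold of HDL and the activator of LCAT, was among the brightest members. Its probe set MmugDNA.24774.1.S1_s_at gave 101538, 82995, 96830.4, 90584 and 84534 in brain-dead animals 1 to 5, against 126571, 127813, 110716, 114073 and 100128 in control animals. Brain-dead animals 2 to 5 lay below every control animal and brain-dead animal 1 lay just above control animal 5. The signal averaged 91296 ± 7916 in brain-dead and 115860 ± 11562 in control livers (SD, n = 5 each). The change of -0.34 ± 0.14 (95% interval -0.64 to -0.044) had a limma adjusted p of 0.155 and was not called.

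APOA2, the other main HDL protein, gave 72981, 92318, 94618, 92409 and 89987 in brain-dead animals 1 to 5, against 110829, 116707, 100704, 109552 and 104690 in control animals, with the probe set MmugDNA.10598.1.S1_s_at. No brain-dead animal reached the lowest control animal. The change was nonetheless -0.30 ± 0.14 (95% interval -0.59 to -0.0052, limma adjusted p = 0.204). APOM, which carries sphingosine-1-phosphate on HDL, gave 5913, 9423, 10670.3, 16106 and 7969 in brain-dead animals, against 10417, 21585, 19036, 16361 and 17708 in control animals. Brain-dead animal 4 stood near the control animals and control animal 1 among the brain-dead ones. The APOM change of -0.80 ± 0.28 (95% interval -1.40 to -0.21) missed the threshold at an adjusted p of 0.102.

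PON1 is an esterase that hepatocytes secrete onto HDL, where it hydrolyses lactones and organophosphates. Its probe set MmugDNA.3043.1.S1_at gave 47462, 42293, 40090.2, 38453 and 29069 in brain-dead animals 1 to 5, against 72173, 72471, 69143, 74049 and 64642 in control animals. The highest brain-dead animal lay well below the lowest control animal, and the control animals lay close together. Control signals differed at most 1.15-fold from each other. The change was -0.85 ± 0.16 (95% interval -1.20 to -0.50, limma adjusted p = 0.0125), or 55.4% of control. The PON1 call held without any single animal, and ended in 2 of 25 settings, without the filter on dim probe sets (adjusted p = 0.0659) and after centring on hepatocyte genes, described below. The untested second probe set, MmuSTS.1221.1.S1_at, read 5.48 to 59.3 in brain-dead and 5.62 to 51.5 in control animals, far under the array medians.

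PON3, a lactonase of the same family that also rides on HDL, gave 30725, 25309, 32549 and 26062 in brain-dead animals 1 to 4 and 24191 in animal 5, against 37903, 53176, 34235, 54239.6 and 38871 in control animals. Again no brain-dead animal reached the lowest control animal. The change of -0.64 ± 0.19 (95% interval -1.04 to -0.24) had a limma adjusted p of 0.0602 and was not called. PON2, the family member that stays inside cells and is no member of the 10, had a change of 0.026 ± 0.45 (adjusted p = 0.982). Its other probe sets had changes of 0.41 ± 0.50 and 0.41 ± 0.44. A difference between PON2 and the secreted paraoxonases was not tested.

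APOB was poorly measured. Its probe set MmugDNA.31262.1.S1_at gave 383, 267, 169, 321 and 170.3 in brain-dead animals 1 to 5, against 441, 255, 337, 225 and 263 in control animals, close to the array medians and above them on 8 of 10 arrays. Brain-dead animals 3 and 5 lay below every control animal and control animal 1 above every brain-dead one, while the others mixed. The change of -0.25 ± 0.31 had a 95% interval of -0.91 to 0.41 (limma adjusted p = 0.671), which leaves room for changes in either direction. Signals of different probe sets do not rank transcripts by abundance, so the dim reading says little about how much APOB RNA was present.

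APOE, which hepatocytes and also macrophages make, did not pass the test with any of its 3 probe sets. The brightest, MmugDNA.31898.1.S1_s_at, gave 60788, 41796, 66202, 62242 and 48569 in brain-dead animals 1 to 5, against 52817, 72054, 64497, 51298 and 73299.8 in control animals. The groups overlapped over most of their range. The change was -0.17 ± 0.18 (95% interval -0.57 to 0.22, limma adjusted p = 0.614), and the other 2 probe sets had changes of -0.41 ± 0.34 and -0.16 ± 0.17. Of 15 measured macrophage markers 0 were called and 0 had an unadjusted p under 0.05, each read from its brightest probe set, and their summed signal was 66492 to 142170 in brain-dead and 94763 to 153779 in control livers. A second probe set of the marker C1QA was called lower (-1.31 ± 0.35, adjusted p = 0.0444). APOH, a phospholipid-binding plasma protein also called beta-2-glycoprotein I, gave 43951, 55068, 52476, 43167 and 50495 in brain-dead animals, against 57294, 60344, 50266, 52276 and 61535 in control animals. Its groups overlapped, with a change of -0.20 ± 0.15 (95% interval -0.53 to 0.12, adjusted p = 0.446).

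The probe sets of a gene differed in the size of the change in the same way for APOA5, APOC3 and APOE. In 3 of these 3 genes the dimmest tested probe set had the most negative change. The bright member probe sets reached a large part of their array's brightest signal, on average 70.5% for APOA1, 67.5% for APOA2 and 60.4% for the brightest of APOC3. Whether such signals were still proportional to RNA was not tested. Among the 341 probe sets with a mean signal over 40000, 8 of them members, 71.6% had a change below 0 with a median of -0.18, and 4.99% were called. Of the 1447 with a mean signal of 10000 to 40000, 5 of them members, 53.4% lay below 0 with a median of -0.038, and 12.6% were called. The median size of a change in the brightest class, in either direction, was 0.26, and PON1 was 1 of its 17 called probe sets.

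**Figure D2:**
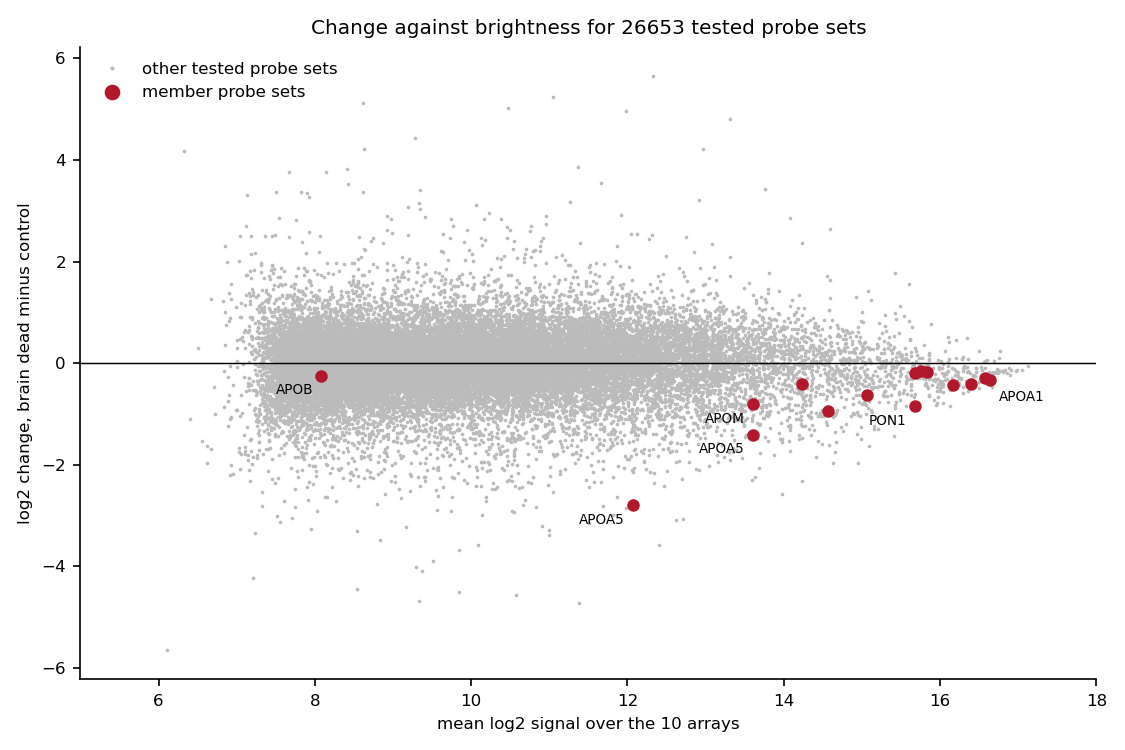
Log2 change of brain-dead minus control animals against mean log2 signal over the 10 arrays, for 26653 tested probe sets (grey) and 15 member probe sets (red; those of APOA2, APOC3, APOE, APOH and PON3 are drawn without a name). The spread narrows toward the bright end, where 71.6% of the probe sets with a mean signal over 40000 lie below 0, and the dimmer APOA5 probe set, at -2.79, is the lowest of the members.

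Other secreted hepatocyte proteins were read beside the members. Of 14 measured genes for such proteins 0 were called and 13 lay below 0, with a median of -0.18, and 3 had an unadjusted p under 0.05. A shorter list held 8 of these 14 genes: RBP4, GC, AMBP, AHSG, SERPINC1, F2, VTN and FETUB. Of the 8, 0 were called, 8 lay below 0 and 3 had an unadjusted p under 0.05, with a median of -0.35. Whether these genes respond to the acute phase was not tested. RBP4, the retinol carrier, had a change of -0.18 ± 0.15, GC, the vitamin D carrier, of -0.20 ± 0.14, and AHSG, or fetuin-A, of -0.40 ± 0.15. The arrays were therefore also centred on these 8 genes. After this centring the median change of the 10 member genes was -0.015, while the median of all genes moved to 0.36. APOA5 kept its call with MmugDNA.38375.1.S1_at (change -2.43, adjusted p = 0.0108), and its brighter probe set had a change of -1.04 (adjusted p = 0.0609). PON1 then had a change of -0.49 (adjusted p = 0.0994). APOA1, APOA2, APOB, APOH and the brighter pair of APOE probe sets turned to changes between 0.022 and 0.21. The 8 reference genes lay below 0 themselves, so this centring moved every change upward by the same amount. The sign of a small change therefore depends on the genes taken as reference. Under every other alternative these probe sets stayed below 0. With this centring 12.7% of 3161 called probe sets were lower, against 55.5% of 1627 with the deposited scaling.

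**Figure D3:**
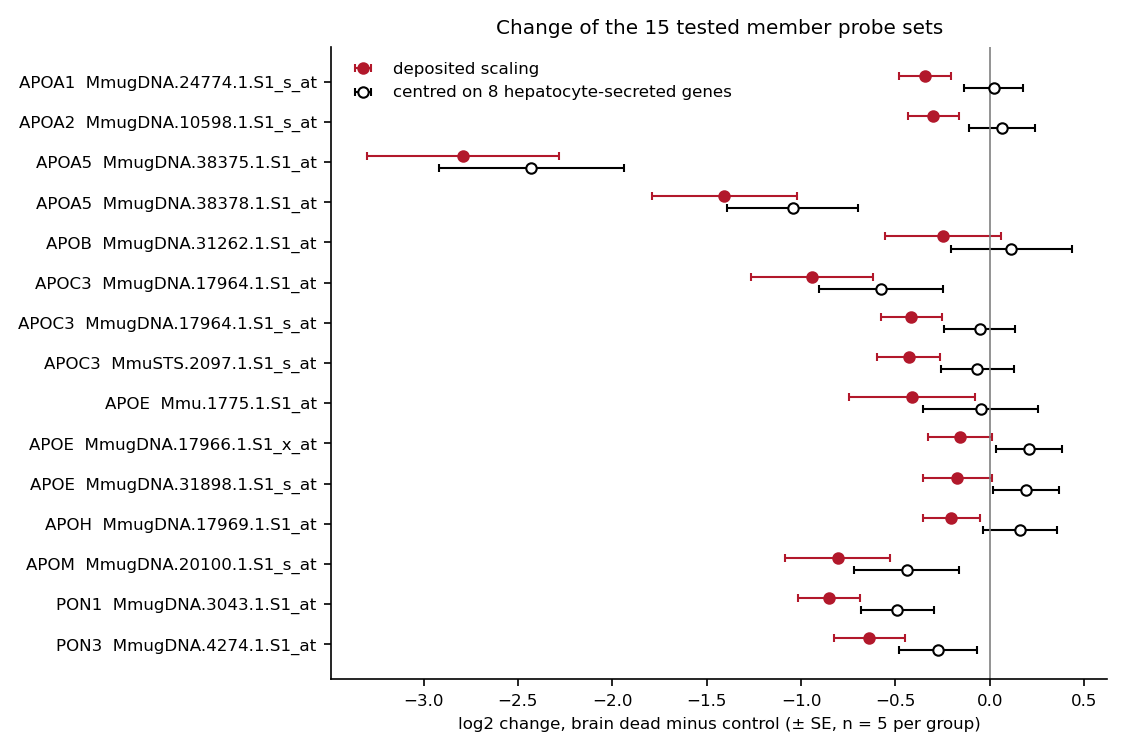
Log2 change of brain-dead minus control animals with its standard error (n = 5 per group) for the 15 tested member probe sets, with the deposited scaling (filled) and after centring each array on 8 hepatocyte-secreted genes (open). Filled points lie below 0 for 15 of 15 probe sets; open points lie near or above 0 for APOA1, APOA2, APOB, APOE, APOH and the brighter APOC3 probe sets, and stay lowest for APOA5.

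The log2 signals of the 10 genes were also averaged in each animal, with an SD of 0.17 over brain-dead and 0.13 over control animals. Relative to the control mean, the mean log2 signal of the 10 genes was -0.48, -0.59, -0.43, -0.38 and -0.81 in brain-dead animals 1 to 5, against -0.069, 0.21, -0.067, 0.024 and -0.10 in control animals. Every brain-dead animal lay below every control animal on this mean, and brain-dead animal 5 was lowest. Between 8 and 10 of the 10 genes lay below the control mean in each brain-dead animal, against 1 to 7 in each control animal. That mean is taken over these same control animals, so their signals lie on both sides of it by construction. Brain-dead animal 5 was lowest of its group for 3 genes and highest for none, while brain-dead animal 1 was lowest for 3 and highest for 4, so the order of animals differed from gene to gene. No interaction of brain death with sex was called by limma for any of 26653 probe sets, 1015 of them at an unadjusted p under 0.05 and 0 of those members. APOA5 (MmugDNA.38375.1.S1_at) had a change of -2.20 in males and of -3.08 in females, and PON1 of -0.96 in males and of -0.67 in females. With 2 or 3 animals per sex and group, large differences between the sexes could be missed.

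The genes around the members in the lipoprotein pathway were read from lists of its other parts, of which 62 of 92 genes were measured. Of these, 6 were called lower and 0 higher, and the median change was -0.12. Of all 9835 genes tested, 3.87% were called lower and 2.9% higher, and whether the lists differed from this share was not tested. The count of 6 was 3, 2 and 1 without brain-dead animals 3, 4 and 5, and 2 without control animal 1, 2, 3 or 5. Without both animals numbered 1 it was 1. With brain-dead animal 3, 4 or 5 left out, calls over all probe sets fell as well, from 1627 to 892, 849 and 680. Leaving out those control animals gave 856, 660, 735 and 1243 calls, and leaving out the pair gave 674. Among 8 other apolipoproteins and relatives 0 were called and 3 had an unadjusted p under 0.05, with a median of -0.42. APOC4, a minor VLDL apolipoprotein, had a change of -0.76 ± 0.28 (adjusted p = 0.123). LPA, the apolipoprotein of lipoprotein(a), had -0.86 ± 0.35 (adjusted p = 0.161), and APOL2, an intracellular relative, had 0.076 ± 0.22 (adjusted p = 0.869). The second APOL2 probe set had the other sign, at -0.32 ± 0.23 (adjusted p = 0.441). APOC1, APOC2 and APOL1 were not analysed here.

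Of 13 measured genes of VLDL assembly and secretion, 2 were called lower and 0 higher, with a median change of 0.037. TM6SF2, a membrane protein needed to load VLDL with lipid, averaged 787 ± 555 in brain-dead and 2746 ± 1484 in control livers (SD, n = 5 each), a change of -1.86 ± 0.46 (limma adjusted p = 0.0320). SMLR1, a small protein of VLDL export known from mice, averaged 1024 ± 488 in brain-dead and 3621 ± 1961 in control livers, a change of -1.80 ± 0.45 (adjusted p = 0.0332). The second SMLR1 probe set had -1.13 ± 0.50 (adjusted p = 0.189). MTTP, which lipidates APOB in the endoplasmic reticulum, is named here after its values were seen. It was read from the brighter of 2 tested probe sets, and the other is not reported here. The MTTP change of -1.75 ± 0.57 missed the threshold (adjusted p = 0.0850). It passed in 3 of 25 alternatives, 1 of them without brain-dead animal 2 (change -2.08, adjusted p = 0.0461). P4HB, the subunit that MTTP binds, and PDIA3, a related disulfide isomerase, had changes of 0.34 ± 0.21 (adjusted p = 0.346) and 0.33 ± 0.15 (adjusted p = 0.198). The TM6SF2 call ended without brain-dead animal 1, 3, 4 or 5 or control animal 2, 3 or 5 (adjusted p from 0.0554 to 0.0807). That of SMLR1 ended without brain-dead animal 1 or 5 or control animal 1, 2, 3 or 4 (adjusted p from 0.0512 to 0.0860).

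HDL formation and sterol export held the most negative changes of these lists, with 3 of 7 measured genes called lower, 0 higher and a median of -1.19. ABCG5 and ABCG8 form a pair that pumps cholesterol into bile. ABCG5 averaged 2240.0 ± 814 in brain-dead and 9726 ± 4536 in control livers, and its groups did not overlap (change -2.07 ± 0.34, limma adjusted p = 0.00583). ABCG8 averaged 519 ± 462 in brain-dead and 2474 ± 1243 in control livers (change -2.63 ± 0.65, adjusted p = 0.0332). LCAT, the plasma enzyme that esterifies HDL cholesterol with APOA1 as its cofactor, averaged 4328 ± 1714 in brain-dead and 9456 ± 2529 in control livers without overlap (change -1.19 ± 0.30, adjusted p = 0.0373). CETP, which exchanges lipids between HDL and VLDL, had a change of 0.13 ± 0.23 (adjusted p = 0.768). ABCG5 kept its call under all 25 alternatives. ABCG8 lost it without brain-dead animal 1, 4 or 5 or control animal 1, 2, 3 or 5 (adjusted p from 0.0504 to 0.0863). LCAT lost it without brain-dead animal 2, 3, 4 or 5 or control animal 1, 2 or 5 (adjusted p from 0.0533 to 0.0967). ABCA1, which hands cholesterol to APOA1, lay under the filter on dim probe sets, and ABCG1 and SCARB1 were not analysed here.

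Uptake and lipolysis gave no calls. Among 6 measured receptor and uptake genes 0 were called and 0 had an unadjusted p under 0.05, with a median of -0.29. Syndecan SDC1, which binds remnants, had -0.33 ± 0.30 (limma adjusted p = 0.539). Scavenger receptors STAB1 and STAB2 had -0.25 ± 0.23 and -0.69 ± 0.40 (adjusted p = 0.557 and 0.318). MYLIP, which marks lipoprotein receptors for breakdown, had -0.38 ± 0.27 (adjusted p = 0.432). Among 4 genes of lipoprotein lipase and its control 0 were called and 1 had an unadjusted p under 0.05, with a median of 0.28. ANGPTL4, a lipase inhibitor, had 0.77 ± 0.49 (adjusted p = 0.360), FURIN, a protease that cleaves the lipase and its inhibitors, had 0.51 ± 0.22 (adjusted p = 0.184), LPL itself had 0.046 ± 0.38 (adjusted p = 0.958) and LMF1, its maturation factor, had -0.39 ± 0.40 (adjusted p = 0.590). Other LPL probe sets had changes of 0.052, 0.24 and -0.34 (adjusted p = 0.963, 0.649 and 0.359).

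Of 24 transcription factors known to act on apolipoprotein genes, 1 was called lower and 0 higher, with a median of -0.090. CEBPA, a liver factor of metabolic genes, averaged 8853 ± 2699 in brain-dead and 21576 ± 8046 in control livers (SD, n = 5 each), a change of -1.23 ± 0.31 (limma adjusted p = 0.0351). Its other 2 probe sets were also called, at -1.30 (adjusted p = 0.0476) and -1.27 (adjusted p = 0.0398). The call of its brightest probe set ended without brain-dead animal 2, 3, 4 or 5 or control animal 1, 3 or 5 (adjusted p from 0.0556 to 0.0885). CEBPB, its relative in the acute phase, had 0.018 ± 0.18 (adjusted p = 0.967). CREB3L3, a membrane-bound factor that drives APOA5 in mice, had 0.90 ± 0.37 (adjusted p = 0.162; 1.24 and 0.0250 without brain-dead animal 2), and NR1H4, the bile acid receptor, had 0.43 ± 0.22 (adjusted p = 0.241). Whether any factor bears on the members was not tested.

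Serum amyloid A proteins can displace APOA1 on HDL in the acute phase. Of 3 measured genes 0 were called from their brightest probe set, and 2 had an unadjusted p under 0.05. SAA1 averaged 85852 ± 5903 in brain-dead and 38345 ± 30110.0 in control livers (SD, n = 5 each), a change of 1.57 ± 0.46 (limma adjusted p = 0.0624). SAA2 averaged 8193 ± 2206 in brain-dead and 14521 ± 3068 in control livers (change -0.84 ± 0.23, adjusted p = 0.0502), and its other probe set was called lower (-0.98 ± 0.27, adjusted p = 0.0454). Without control animal 4, both passed from these probe sets, SAA1 higher (change 1.96, adjusted p = 0.0130) and SAA2 lower (-0.90, adjusted p = 0.0441). SAA1 and SAA2 are near-identical copies, so their probe sets may bind transcripts of both. SAA4, the form present on HDL outside inflammation, had -0.33 ± 0.18 (adjusted p = 0.287).

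**Figure D4:**
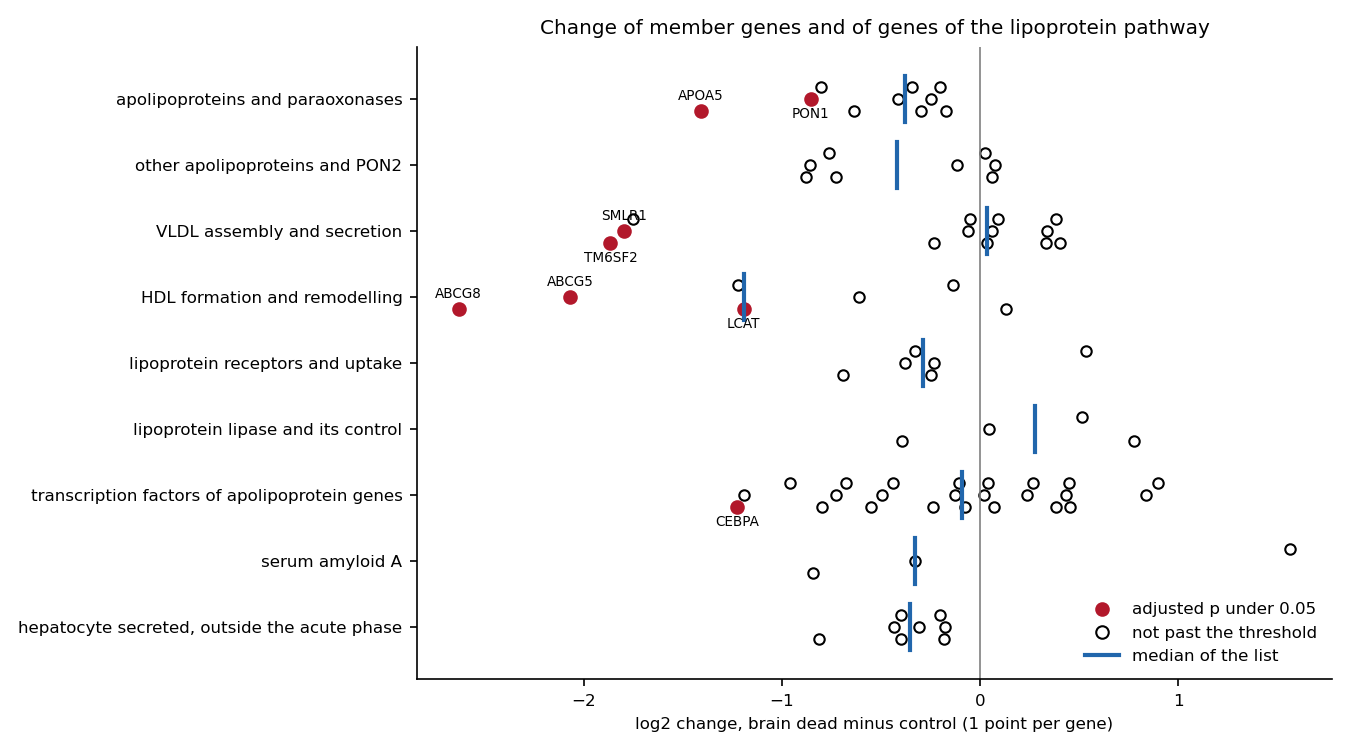
Log2 change of brain-dead minus control animals, 1 point per gene read from its brightest tested probe set, for the 10 member genes and for lists of the lipoprotein pathway; filled points passed the limma threshold and the vertical bar is the list's median. The called genes are APOA5 and PON1 among the members and TM6SF2, SMLR1, ABCG8, ABCG5, LCAT and CEBPA outside them, all lower. The row named hepatocyte secreted, outside the acute phase, holds the shorter list of 8 secreted genes, whatever their acute phase response. The list named HDL formation and remodelling has the lowest median, -1.19, and it also holds ABCG5 and ABCG8, which pump cholesterol into bile.

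Several members are neighbours in the rhesus genome, by the gene order of the assembly T2T-MMU8v2.0. APOA5, APOA4, APOC3 and APOA1 lie next to each other with 0 protein-coding genes between them, and so do PON2, PON3 and PON1. Along the first cluster the brightest probe sets read -1.41 for APOA5, -0.12 ± 0.62 for APOA4 (limma adjusted p = 0.935), -0.42 for APOC3 and -0.34 for APOA1. Along the second they read 0.026 for PON2, -0.64 for PON3 and -0.85 for PON1. Differences between neighbours were not tested.

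The genes outside the group with the most similar pattern over the 10 animals were found by the root mean square difference of log2 signal after each gene's own mean was subtracted, among 9825 genes. Nearest to the mean of the 10 members were SERPINC1, or antithrombin (difference 0.0795), KNG1, or kininogen (0.102), and TSPAN31, a tetraspanin (0.108), against a median of 0.539 over all genes. SERPINC1 had a change of -0.43 ± 0.15, KNG1 of -0.54 ± 0.15 and TSPAN31 of -0.56 ± 0.20, and limma called none of them (adjusted p = 0.104, 0.0520 and 0.111). Nearest to PON1 were UGT2B33, a glucuronosyltransferase (0.158), AIG1, a lipid hydrolase (0.165), and CES2, a carboxylesterase (0.167), against a median of 0.635. The brightest probe sets of AIG1 and CES2 were called lower, with changes of -0.93 ± 0.21 and -0.89 ± 0.19 (adjusted p = 0.0226 and 0.0180). Another CES2 probe set, at -0.47 ± 0.21, was not called (adjusted p = 0.205). UGT2B33 had -0.67 ± 0.20 (adjusted p = 0.0617). The likeness to APOA5 was looser, with PIK3IP1, an inhibitor of phosphoinositide 3-kinase (0.350), GALT, an enzyme of galactose use (0.353), and PGAP2, a factor of membrane anchor synthesis (0.353), against a median of 1.05. PIK3IP1 and PGAP2 fell with changes of -1.43 ± 0.31 and -1.07 ± 0.29 (adjusted p = 0.0218 and 0.0451), and GALT had -1.36 ± 0.44 (adjusted p = 0.0811). All these nearest genes were chosen over the animals of both groups, so a change like that of their member follows from the choice. Their changes and adjusted p are a description and no separate evidence.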

How the data were processed

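The authors deposited MAS5 signals, 1 linear intensity for each probe set of each array, per the submitters' processing notes (the sources used here give no MAS5 version). The 2% trimmed mean was about 1000 on each array, which shows a common scaling. Groups, sex and age came from the labels. Signals were taken to log2 without a pseudocount or further normalization. Of 52865 probe sets, 99 controls were left out. Of the rest, the 26653 that exceeded the array median on 5 or more of the 10 arrays were kept. Of all probe sets, 24969 had 1 symbol in the platform annotation of 2016, 361 several and 27535 none. Those with several or none were not named. The reference annotation held the gene IDs of 24629.

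Groups were compared with limma 3.58.1 in R 4.3.3 (lmFit, eBayes with trend, no covariates), with Benjamini-Hochberg adjustment over all kept probe sets and a threshold of 0.05, tested on simulated data. A gene was read from its kept probe set with the highest mean. Groups were not overlapping when every signal of 1 lay beyond every signal of the other. Probe sets with the suffix s or x can bind transcripts of related genes. Precision is limited by the number of arrays, 5 per group. The limma p-values set each group difference against the spread between these animals, and nothing in the labels says how the animals were related. Plots come from matplotlib 3.10.9 (Python 3.11.15).

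Members and gene lists were chosen with earlier results of these data known. Named genes were all members, up to 4 genes per list (those past the threshold by size of change, then by mean signal) and the 3 nearest genes of the member mean and of each called member. MTTP was added after its values were seen. Replicate numbers named animals and were not taken as pairs. Alternatives were other scalings, pseudocounts of 16 and 64, other filters, probe set types and ways to read a gene, sex or sex and age as covariates, a replicate block, other variance settings, array weights, and leaving out each array or both numbered 1.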

Additional observations from a re-analysis of the deposited data

Results flagged for a closer look

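APOA2 in brain-dead animal 1 stood apart from the rest of its group. Its signal was 72981, while the other 4 brain-dead animals lay between 89987 and 94618. On the log2 scale the gap to the nearest was 0.807 of the group's whole range, above the limit for a group of 5. Of 32 groups of member signals examined in this way 1 was set apart, and chance sets apart about 5% of such groups. Without this animal the APOA2 change was -0.23 and the call did not change.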

How the results depend on the processing

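APOA5 (MmugDNA.38375.1.S1_at) kept its call under all 25 alternatives and PON1 under 23. The replicate block called 3013 probe sets in all, 5 member probe sets and 13 list genes, against 1627, 3 and 6 without it, adding the dimmest APOC3 probe set (adjusted p = 0.0248), APOM (0.0351), APOC4 (0.0208), LPA (0.0499), MTTP (0.0172), SAA1 (0.0481) and SAA2 (0.0279). Deviations of same-numbered animals correlated by 0.380, 0.0643, 0.128, 0.0889 and 0.128, and best with their own number in 2 of 5 cases. Centring on hepatocyte-secreted genes called 3161 probe sets, 1 member probe set, 0 member genes and 11 list genes, with a median member change of -0.015. It turned APOA1 to 0.022, APOA2 to 0.065, APOB to 0.11, APOE to 0.21 and 0.19, APOH to 0.16, SDC1 to 0.034, STAB1 to 0.12 and SAA4 to 0.037. Without a filter, more probe sets enter the adjustment, and 1056 probe sets, 1 member probe set, 0 member genes and 1 list gene were called. Sex and age together, fitted without brain-dead animal 3 whose age is unknown, called 1035 probe sets, and leaving out that animal alone called 892. The fit with sex and age also called MTTP (adjusted p = 0.0304). Array weights called 11 list genes, and leaving out both animals numbered 1 called 674 probe sets and 1 list gene. Member genes called were 1 with quantile normalization, median centring, sex, sex and age, eBayes without trend or without both animals numbered 1. The filter at the 75th percentile called PON3 too (adjusted p = 0.0426) and left 9 member genes. SAA1 was called higher under 6 of 24 alternatives and SAA2 lower under 7 of 25. The median member change was -0.21 with quantile normalization and -0.64 over the 7 genes with unsuffixed probe sets. PON2 read -0.24 with sex and age, as it did without brain-dead animal 3 alone, and -0.034 with array weights, LPL -0.048 with array weights and -0.28 without both animals numbered 1, and CEBPB -0.015 with sex and -0.013 without both animals numbered 1. Leaving out each animal in turn called 660 to 2289 probe sets, 2 to 3 member probe sets, 1 to 2 member genes and 1 to 9 list genes, with a median member change of -0.42 to -0.33. The changes then ranged between -0.24 and 0.31 for PON2, -0.014 and 0.20 for APOL2, -0.27 and 0.33 for LPL, and -0.067 and 0.096 for CEBPB. The causes of these differences between settings were not tested. Dim signal limits APOB and the second PON1 probe set.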

Other observations

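Markers of other cell types gave 2 calls of 7 for neutrophils, both higher. S100A8 averaged 12411 ± 7914 in brain-dead and 1043 ± 846 in control livers (change 3.85 ± 0.74, limma adjusted p = 0.0128), and S100A9 averaged 13929 ± 10956 in brain-dead and 1257 ± 864 in control livers (change 3.54 ± 0.63, adjusted p = 0.00911). The other 5 neutrophil markers measured were not called. PADI4, CSF3R and MMP9 lay above 0, at 0.58, 0.76 and 1.69, and FPR1 and ELANE below it, at -0.26 and -0.38. Of 4 measured enterocyte markers ANPEP, an aminopeptidase also present on bile canaliculi, was called lower (change -1.39 ± 0.33, adjusted p = 0.0280), while its other 2 probe sets, at -0.51 and -0.29, were not. VIL1, the microvillus protein villin, was not called from its brightest probe set (0.087 ± 0.25, adjusted p = 0.872), and its other 4 probe sets were called lower, with changes of -3.21, -2.09, -1.97 and -1.84 (adjusted p = 0.00361, 0.0178, 0.0138 and 0.00741). FABP2, SI, LCT and CDX2 lay under the filter. Among the 5 lymphocyte, 9 endothelial, 5 stellate, 5 cholangiocyte and 2 erythroid markers measured, 0 were called by limma, with 1, 3, 0, 1 and 0 at an unadjusted p under 0.05.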
